A study of Mus musculus with 9 samples.

Results

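The 10 genes described here act in glutathione turnover or are targets, or the gene itself, of the transcription factor NRF2: *Chac1*, *Cth*, *Gclc*, *Gclm*, *Gpx4*, *Hmox1*, *Nqo1*, *Txnrd1*, *Srxn1* and *Nfe2l2*. They were picked by name for these roles, with earlier results of these data known, out of 26858 genes in the count table. All 10 had enough reads to be tested. SIX2 progenitors, the cap mesenchyme cells from which nephrons form, were isolated by fluorescence-activated cell sorting of eGFP+ cells from mouse kidneys at age E18.5. Controls were *Six2-Qpc*+/- heterozygotes (n = 4 libraries, replicates 71, 72, 73 and 76), and mutants were *Six2-Qpc*-/- (n = 5 libraries, replicates 74, 75, 77, 78 and 79). Both genotypes carried the bacterial artificial chromosome transgene in which the *Six2* promoter drives Cre recombinase fused to eGFP, so the control cells had also recombined, lacked 1 copy of *Qpc* and are not wild type. *Qpc* (*Uqcrq*) encodes a subunit of mitochondrial (mt) complex III, and the comparison asks how sorted progenitors without it differ in RNA from those that keep 1 copy. Amplified, poly(A)-selected and non-stranded libraries held 21040536 to 23986458 gene counts each. No litter, sex or batch is given in the labels, so p-values may measure only the spread between these samples.

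Glutathione is a tripeptide of glutamate, cysteine and glycine that cells use as a reducing agent, and its supply depends on cysteine and on glutamate-cysteine ligase. It is used by peroxidases and transferases and is broken down inside cells by the CHAC enzymes. NRF2 is held low by KEAP1 under basal conditions and, when released, binds antioxidant response elements near genes of glutathione synthesis, thioredoxin and sulfiredoxin reduction and heme breakdown, whereas ATF4 is the transcription factor of the amino acid and mt stress response.

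The targeted gene was examined in every sample first. *Uqcrq* (ENSMUSG00000044894, chromosome 11, 53427922 to 53430831) had 107, 76.8, 91.1 and 101 counts per 1000000 counts of the TMM-scaled library (CPM) in control replicates 71, 72, 73 and 76. In mutant replicates 74, 75, 77, 78 and 79 it had 16.4, 28.2, 22.6, 20.3 and 19.0 CPM. Every mutant library lay below every control library, with 386 to 637 reads left per mutant library. The edgeR quasi-likelihood test gave a log2 fold change, mutant against control, of −2.14 ± 0.16 (standard error) with an adjusted p of 2.09e-05.

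Markers of the sorted cells and of other kidney cell types were read in the same libraries. All 10 progenitor markers were detected, and 0 passed the threshold (adjusted p under 0.05) with edgeR or DESeq2, 1 with limma-voom and 2 at an unadjusted p under 0.05 (edgeR), which 31.4% of all genes tested had, 15.2% as lower in mutants. Their summed level was 2489 ± 229 CPM in controls (SD, n = 4) and 2597 ± 223 CPM in mutants (SD, n = 5). *Six2* had the highest mean over the 9 libraries, whereas in controls *Six2* (570.82 CPM) and *Crym* (571.05 CPM) were about level. The ureteric bud receptor *Ret* and the ligand *Wnt9b* were near 0, at no more than 13 and 7 reads in a library.

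Of 10 stromal markers, 5 were higher in mutant cells, namely *Foxd1*, *Pdgfra*, *Col1a1*, *Col3a1* and *Tcf21*, the last being the most abundant (edgeR; 8 were higher by DESeq2, and 7 were higher and 1, *Pdgfrb*, lower by limma-voom). The summed stromal level was 220, 195, 195 and 329 CPM in control replicates 71, 72, 73 and 76, and 590, 928, 388, 433 and 501 CPM in mutant replicates 74, 75, 77, 78 and 79. The genotypes did not overlap, and mutant replicate 75 was the highest. Macrophage markers summed to 2.68, 12.2, 2.61 and 17.6 CPM in the controls and to 15.6, 55.1, 181, 84.7 and 59.4 CPM in the mutants, in the same order. *C1qb* had the highest mean of these 10 genes over the 9 libraries, whereas in controls *Cd68* was higher than *C1qb* (2.28 against 1.27 CPM). Mutant replicate 77 had the highest sum. Of the 9 macrophage markers tested, 3 were higher by edgeR (*Cd68*, *Tyrobp* and *Fcer1g*), 6 by DESeq2, 9 by limma-voom and 9 at an unadjusted p under 0.05 (edgeR; 31.4% of all genes). Erythroid markers were near 0 in both genotypes, 2.86 ± 0.591 CPM in controls (SD, n = 4) and 2.51 ± 0.457 CPM in mutants (SD, n = 5) over the 9 of 10 genes that matched, with *Alas2* the most abundant.

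Among 8 markers of committed nephron cells, 3 were lower in mutant cells by edgeR (*Lhx1*, *Wnt4* and *Ccnd1*), 4 by DESeq2 and 6 by limma-voom. *Pax8* had the highest mean over the 9 libraries, whereas in controls *Wnt4* was higher than *Pax8* (234 against 182 CPM). Sums of the 8 markers were 519 ± 137 CPM in controls (SD, n = 4) and 299 ± 40.6 CPM in mutants (SD, n = 5), overlapping between genotypes. Of these sums, *Wnt4* made up 234 and 68.7 CPM. *Pax8* had a log2 fold change of −0.0020 (adjusted p = 0.996, edgeR). Endothelial markers summed to 21.7 ± 3.62 and 11.3 ± 3.17 CPM (SD, n = 4 and 5), of which *Plvap*, the most abundant and lower in mutants, made up 17.7 and 4.83 CPM. *Pecam1* was higher, and the median log2 fold change of the 5 endothelial markers tested was 0.74. Sums of 8 ureteric bud markers, led by *Hoxb7*, were 59.5 ± 9.32 and 46.5 ± 14.9 CPM, and sums of 9 tubule and podocyte markers, led by *Lrp2*, were 6.47 ± 2.53 and 8.62 ± 4.54 CPM (SD, n = 4 and 5), and 4 genes of each list had enough reads to be tested. Of these, 0 passed the threshold by edgeR in either list, 2 and 0 by DESeq2 and by limma-voom, and 3 and 1 had an unadjusted p under 0.05 (31.4% of all genes). In such bulk RNA, a change in the number of cells of a type and a change in RNA per cell cannot be told apart. The part of the stromal, macrophage and committed cell markers in the differences described here was not tested.

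Of the 10 genes, 5 were higher in mutant SIX2 progenitors: *Chac1*, *Hmox1*, *Srxn1*, *Cth* and *Nfe2l2*. None was lower by edgeR or by DESeq2, whereas limma-voom with sample quality weights called 1 lower gene, *Gclc*, which was also the 1 gene with an unadjusted p under 0.05 in that direction by edgeR (15.2% of all genes). Over all 14990 genes tested, 14.8% passed the threshold, 7.82% as higher and 7.02% as lower. For 4 of the 10 genes, each mutant library exceeded each control library, and for 0 it was the reverse; over all genes tested, 7.5% had mutants wholly above controls, 7.73% wholly below and 15.2% either. The median log2 fold change was 0.50 over the 10 genes and −0.01 over all genes tested. The 5 higher genes were past the threshold in each of the 15 alternative settings, although the number of genes called in the whole table moved from 2225 to 4858 with limma-voom and to 1354, 1272, 1046 and 1336 without control replicate 71, 72 or 73 or mutant replicate 78.

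**Figure D1:**
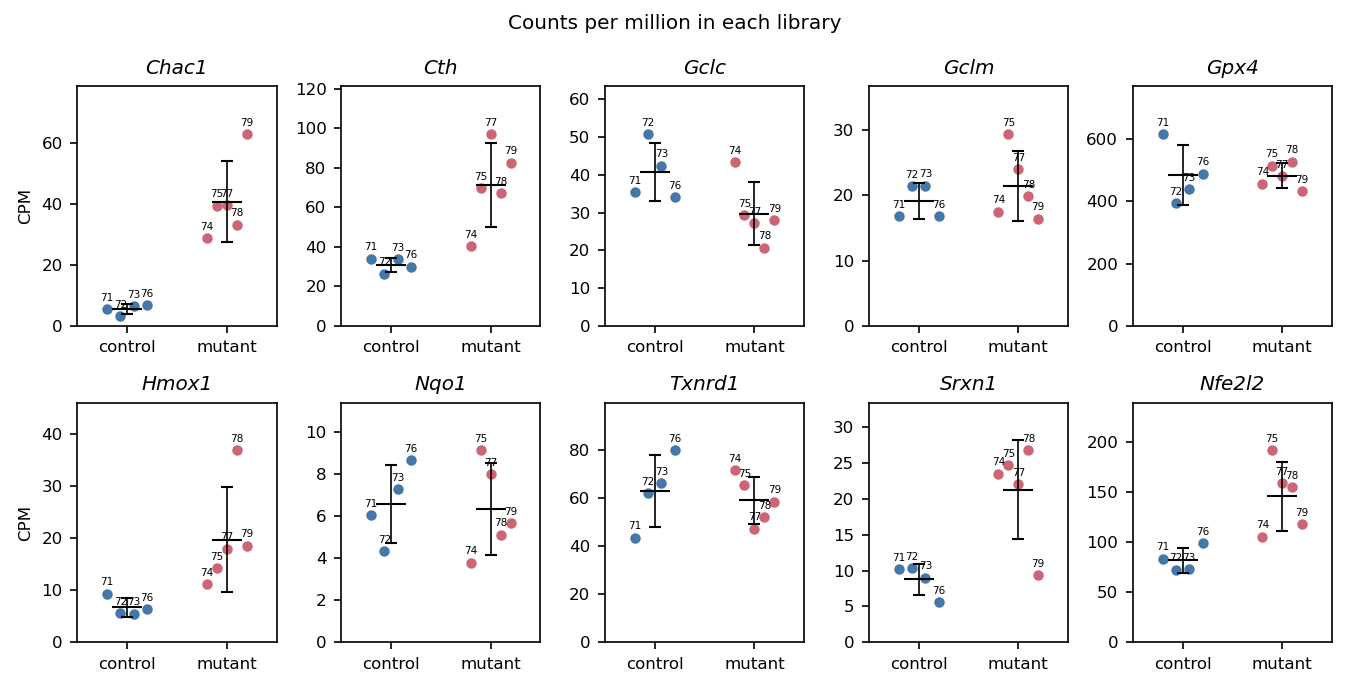
Level in CPM (vertical axis) of each of the 10 genes in the 4 control (blue) and 5 mutant (red) libraries, numbered by replicate, with the mean and SD of each genotype in black. Mutant libraries lie above all controls for *Chac1*, *Cth*, *Hmox1* and *Nfe2l2*; for *Srxn1*, mutant replicate 79 lies among the controls.

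*Chac1* encodes the γ-glutamylcyclotransferase that degrades glutathione in the cytosol, and it is also a target of ATF4. In control replicates 71, 72, 73 and 76, *Chac1* (ENSMUSG00000027313, chromosome 2, 119351229 to 119354381) was at 5.45, 3.23, 6.45 and 6.79 CPM. In mutant replicates 74, 75, 77, 78 and 79, it was at 28.8, 39.5, 39.6, 33.3 and 63.0 CPM. The lowest mutant library was thus far above the highest control library, and replicate 79 stood above the other mutants. *Chac1* was 7.45-fold higher in mutant cells (95% interval 4.97 to 11.2; log2 fold change 2.90, standard error 0.27, adjusted p = 0.000140, edgeR). With 83 to 161 reads per control library and 675 to 1388 per mutant library, the genotypes differed also by a 2-sided exact permutation test (p = 0.00794, the smallest that 4 against 5 libraries allow). By the same test, unadjusted, p was 0.0159 for *Cth*, *Hmox1* and *Nfe2l2*, 0.0317 for *Srxn1* and 0.111 for *Gclc*. For *Gclm*, *Txnrd1*, *Nqo1* and *Gpx4* it ranged from 0.516 to 0.952.

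*Cth* encodes cystathionine γ-lyase, which releases cysteine from cystathionine in the transsulfuration pathway. Control replicates 71, 72, 73 and 76 had 34.1, 26.5, 33.7 and 30.0 CPM of *Cth* (ENSMUSG00000028179, chromosome 3, 157894248 to 157925077). Mutant replicates 74, 75, 77, 78 and 79 had 40.3, 69.8, 97.2, 67.1 and 82.6 CPM. Mutant replicate 74 was close to the controls and the other mutants were well above them, with no overlap. The fold change was 2.30 (95% interval 1.68 to 3.13; log2 fold change 1.20, standard error 0.21, adjusted p = 0.00359, edgeR).

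Glutamate-cysteine ligase, the enzyme that joins glutamate to cysteine, consists of a catalytic subunit, encoded by *Gclc*, and a modifier subunit, encoded by *Gclm*. *Gclc* (ENSMUSG00000032350, chromosome 9, 77754535 to 77794485) had 35.4, 50.8, 42.4 and 34.1 CPM in control replicates 71, 72, 73 and 76. It had 43.3, 29.4, 27.2, 20.7 and 28.0 CPM in mutant replicates 74, 75, 77, 78 and 79. The mutant libraries other than replicate 74 lay below all controls, while replicate 74 lay within the control range. Its log2 fold change, −0.45 with a 95% interval of −0.88 to −0.03, did not pass the threshold (adjusted p = 0.134, edgeR). It was −0.63 without mutant replicate 74 (adjusted p = 0.0182, edgeR) and −0.66 with limma-voom (adjusted p = 0.00913); adjusted p ranged from 0.00913 to 0.342 over the 15 alternatives.

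*Gclm* (ENSMUSG00000028124, chromosome 3, 122245557 to 122269984) ranged from 16.8 to 21.5 CPM in controls and from 16.4 to 29.4 CPM in mutants. These ranges overlapped, and the log2 fold change was 0.16 (95% interval −0.24 to 0.57, adjusted p = 0.592, edgeR). An antisense gene, *Gm17494*, overlaps *Gclm* over 14027 bases at a mean of 0.755 CPM, and without strand its reads cannot be separated from those of *Gclm*. Within each library, reads per length of *Gclm* divided by those of *Gclc* gave 0.335, 0.299, 0.359 and 0.348 in control replicates 71, 72, 73 and 76, and 0.286, 0.708, 0.624, 0.680 and 0.414 in mutant replicates 74, 75, 77, 78 and 79. The ratio of modifier to catalytic subunit RNA was above all controls in the mutants other than replicate 74, which had the lowest ratio of all 9 libraries. The difference in mean log2 ratio was 0.62 (2-sided exact permutation test, p = 0.103). Without mutant replicate 74 it was 0.83 (p = 0.0286, the smallest that an exact test of 4 against 4 libraries allows), and p ranged from 0.0286 to 0.20 with each library left out. The ratio of *Chac1* to *Gclc*, set up after the values were seen and not tested, was 0.297 ± 0.119 in controls (SD, n = 4) and 3.06 ± 1.19 in mutants (SD, n = 5), a ratio of reads per length without overlap between genotypes.

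*Gpx4* encodes the selenoprotein that uses glutathione to reduce lipid peroxides. *Gpx4* (chromosome 10, 80047166 to 80056439) was the most abundant of the 10 genes, at 393 to 615 CPM in controls and 432 to 526 CPM in mutants. Its mutant libraries all lay inside the control range. The log2 fold change of −0.01 had a 95% interval of −0.29 to 0.28 (adjusted p = 0.980, edgeR), and its sign changed with the scaling (0.0042 with RLE factors).

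The heme oxygenase gene *Hmox1*, whose product opens the heme ring and frees its iron, was higher in mutant cells. Control replicates 71, 72, 73 and 76 had 9.33, 5.65, 5.52 and 6.37 CPM of *Hmox1* (ENSMUSG00000005413, chromosome 8, 75093591 to 75100596), and mutant replicates 74, 75, 77, 78 and 79 had 11.1, 14.2, 18.0, 36.8 and 18.6 CPM. The mutants were all above the controls, replicate 74 only slightly, and replicate 78 stood far above the rest. The fold change was 2.93 (95% interval 1.83 to 4.71; log2 fold change 1.55, standard error 0.32, adjusted p = 0.00767, edgeR). *Hmox1* is also abundant in macrophages, whose markers summed to 15.6, 55.1, 181, 84.7 and 59.4 CPM in the same mutant libraries, and the part of macrophage RNA in the rise of *Hmox1* was not tested.

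*Srxn1* encodes sulfiredoxin, which restores overoxidized peroxiredoxins. Its level (ENSMUSG00000032802, chromosome 2, 152105516 to 152111376) was 10.2, 10.3, 9.02 and 5.61 CPM in control replicates 71, 72, 73 and 76, and 23.5, 24.7, 22.0, 26.7 and 9.39 CPM in mutant replicates 74, 75, 77, 78 and 79. Mutant replicates 74 to 78 formed a narrow band above the controls, whereas replicate 79, which had the highest *Chac1* of all libraries, lay among the controls. *Srxn1* was 2.42-fold higher in mutant cells (95% interval 1.59 to 3.69; log2 fold change 1.27, standard error 0.28, adjusted p = 0.0113, edgeR).

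*Nqo1* and *Txnrd1*, which encode a quinone reductase and the cytosolic thioredoxin reductase, did not pass the threshold. *Nqo1* (ENSMUSG00000003849, chromosome 8, 107388225 to 107403206) was weakly expressed, with 111 to 205 reads per control library and 89 to 206 per mutant library. It ranged from 4.32 to 8.65 CPM in controls and from 3.79 to 9.12 CPM in mutants, so the mutants spanned the whole control range. The log2 fold change of *Nqo1* was −0.05 with a 95% interval of −0.67 to 0.56 (adjusted p = 0.921, edgeR). *Txnrd1* (ENSMUSG00000020250, chromosome 10, 82859206 to 82897724) ranged from 43.5 to 79.6 CPM in controls and from 47.2 to 71.6 CPM in mutants. Its log2 fold change was −0.09 (95% interval −0.46 to 0.28, adjusted p = 0.756, edgeR), and all mutant libraries lay inside the control range.

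*Nfe2l2*, the gene of NRF2 itself, was at 83.5, 72.5, 73.1 and 98.8 CPM in control replicates 71, 72, 73 and 76 (ENSMUSG00000015839, chromosome 2, 75675513 to 75704641). In mutant replicates 74, 75, 77, 78 and 79 it was at 106, 192, 159, 155 and 118 CPM. The mutants were all above the controls, with replicates 74 and 79 nearest to them and replicate 75, which also had the highest stromal sum, at the top. The fold change was 1.78 (95% interval 1.37 to 2.30; log2 fold change 0.83, standard error 0.17, adjusted p = 0.00822, edgeR). The activity of NRF2 protein is set largely by its degradation, which RNA counts do not measure.

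**Figure D2:**
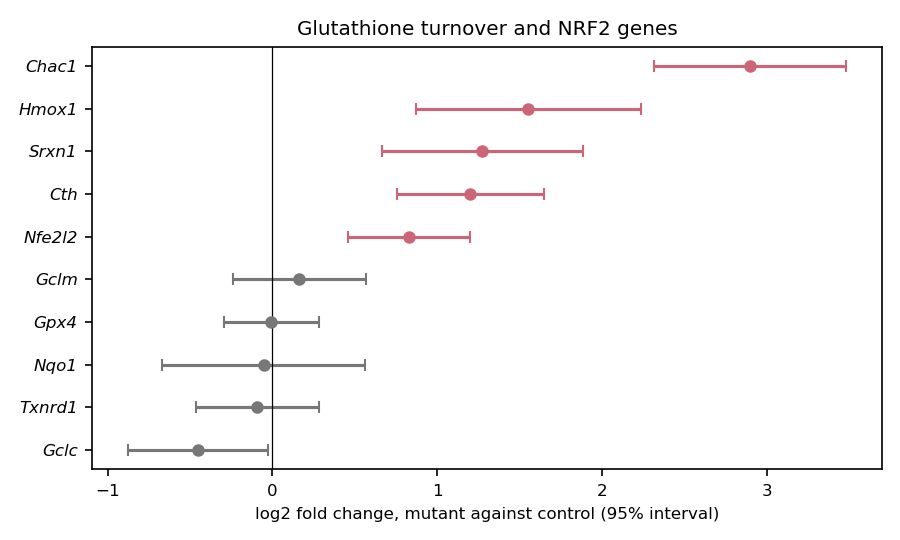
Log2 fold change of each of the 10 genes, mutant (n = 5) against control (n = 4), with its 95% interval (horizontal axis); red marks genes with an adjusted p under 0.05 over all genes tested (edgeR) and grey the others. *Chac1* (2.90) lies farthest to the right, and the intervals of *Gclm*, *Gpx4*, *Nqo1* and *Txnrd1* span 0.

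Of the 5 higher genes, 4 (*Chac1*, *Cth*, *Hmox1* and *Nfe2l2*) were lowest among mutants in replicate 74, as was *Nqo1*, and *Srxn1* was lowest in replicate 79. How many of all genes called higher were lowest in replicate 74 was not counted. Without replicate 74, 3136 genes of the whole table passed the threshold in place of 2225 (edgeR), the most with any library left out. A low replicate 74 is therefore not shown to be particular to these genes. The highest mutant was replicate 79 for *Chac1*, replicate 77 for *Cth*, replicate 78 for *Hmox1* and *Srxn1*, and replicate 75 for *Nfe2l2*. *Uqcrq* was itself lowest in replicate 74, at 16.4 CPM.

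Levels of different genes were compared as reads per kilobase of gene length and per 1000000 counts. In controls the order was *Gpx4* (486 ± 96.5), *Nfe2l2* (33.1 ± 4.97), *Txnrd1* (18.4 ± 4.37), *Cth* (17.1 ± 1.96), *Gclc* (11.9 ± 2.23), *Nqo1* (4.24 ± 1.19), *Hmox1* (4.18 ± 1.11), *Gclm* (3.95 ± 0.559), *Chac1* (3.35 ± 0.980) and *Srxn1* (3.12 ± 0.780; level per length, SD, n = 4). *Gpx4* and *Nfe2l2* stood apart from each other and from the rest, and a gap without overlap also separated *Gclc* from *Nqo1*; the other neighbours overlapped. In mutants the order was *Gpx4* (484 ± 39.7), *Nfe2l2* (58.8 ± 13.9), *Cth* (39.3 ± 11.6), *Chac1* (24.9 ± 8.06), *Txnrd1* (17.2 ± 2.87), *Hmox1* (12.3 ± 6.23), *Gclc* (8.68 ± 2.43), *Srxn1* (7.56 ± 2.44), *Gclm* (4.43 ± 1.10) and *Nqo1* (4.08 ± 1.40; level per length, SD, n = 5). Only *Gpx4* was separated there from its neighbour, and *Chac1*, the ninth in controls, was the fourth. Neighbours in this order were not tested against each other.

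The genes whose log2 CPM followed *Chac1* most closely over the 9 libraries were *Asns*, *Gars*, *Trib3*, *Tpcn1* and *Mthfd2* (Pearson r of 0.98 for each, as a description among 9348 genes of at least 10 CPM). For *Hmox1* they were *Rpl36*, *Tbpl1*, *Rps16*, *Fau* and *Rpl12* (r from 0.95 to 0.96), and for *Nfe2l2* they were *Lamp2*, *Degs1*, *Snx5*, *Atp6ap2* and *Etf1* (r from 0.98 to 0.99). These values hold the difference between genotypes that the genes share. After the mean of each genotype was subtracted, other genes headed each ranking except for *Rpl36*: *Rcor1*, *Fastkd1*, *Pus10*, *Ankrd46* and *Zbtb26* for *Chac1* (r from 0.88 to 0.92), *Scand1*, *Osgepl1*, *Rpl36*, the pseudogene *Rpl38-ps2* and *Smim4* for *Hmox1* (r from 0.92 to 0.94), and *Rab18*, *Sec22b*, *Isca1*, *Hadhb* and *Tsen15* for *Nfe2l2* (r from 0.98 to 0.99). Within genotypes, *Chac1* had an r of 0.60 with *Cth* and with *Nqo1*, 0.17 with *Nfe2l2*, 0.13 with *Gpx4*, 0.10 with *Hmox1*, 0.04 with *Txnrd1*, −0.26 with *Gclm*, −0.46 with *Gclc* and −0.77 with *Srxn1* (n = 9 libraries).

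Other genes of glutathione synthesis and turnover, 16 tested of 19, showed 1 higher and 1 lower gene in mutant cells by edgeR (3 and 1 by DESeq2, 3 and 2 by limma-voom) and a median log2 fold change of −0.09. *Slc3a2*, the heavy chain of the cystine and large neutral amino acid transporters, rose from 222 ± 13.5 CPM (SD, n = 4) to 492 ± 98.2 CPM (SD, n = 5), without overlap (log2 fold change 1.15, standard error 0.15, adjusted p = 0.000812, edgeR). *Ggt7*, of the γ-glutamyltransferase family, fell by 2.21 on the log2 scale (adjusted p = 0.00183, edgeR) on 84 to 155 reads per control and 10 to 29 per mutant library; it overlaps *Acss2* over 290 bases on the other strand. *Slc7a11*, the light chain that carries cystine, had only 1 to 16 reads per control and 8 to 86 per mutant library (log2 fold change 2.19, adjusted p = 0.0637, edgeR).

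Among enzymes that use glutathione, 31 tested of 35, 1 gene was higher and 5 were lower by edgeR (2 and 5 by DESeq2, 5 and 5 by limma-voom), with a median log2 fold change of 0.01. *Gsto1* was higher (0.52), and *Gstm4* (−0.64), *Gstm6* (−1.24), *Gstt2* (−0.96), *Gstz1* (−0.44) and *Mgst3* (−0.85) were lower in mutant cells (log2 fold change, edgeR). *Gsto1* lost its call without control replicate 72 or 73, *Gstm4* without control replicate 71 or 76, and *Gstz1* in 9 of the 15 alternatives. Glutathione S-transferases are families of like sequence whose reads may be split among copies, and *Gsto1* and *Gstz1* overlap *Wdr96* and *Pomt2* on the other strand, so these values are uncertain.

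Of the other NRF2 targets, 29 tested of 30, 3 were higher and 3 lower by edgeR (4 and 5 by DESeq2, 7 and 6 by limma-voom), and the median log2 fold change was −0.02. The higher genes were *Ftl1* (0.72), for the ferritin light chain, *Akr1b8* (0.82) and *Sqstm1* (0.42), and the lower genes were the NADPH-producing *G6pdx* (−0.52) and *Idh1* (−0.51) and the epoxide hydrolase *Ephx1* (−0.76; log2 fold change, edgeR). Leaving out control replicate 73 ended the calls of *Ftl1*, *Akr1b8*, *Sqstm1*, *Idh1* and *Ephx1*, and *Sqstm1*, with an adjusted p of 0.0479 by edgeR, was not called in 10 of the 15 alternatives. *Akr1b8* also lost its call without control replicate 72 or mutant replicate 75 or 78, and *Idh1* without control replicate 76 or mutant replicate 78. *G6pdx* overlaps *Ikbkg* and *Sqstm1* overlaps *3010026O09Rik* on the other strand, and *Ftl1* has near-identical copies, which makes their counts uncertain.

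Of 13 regulators of NRF2, all tested, 2 were higher and 0 lower by edgeR (2 lower at an unadjusted p under 0.05, against 15.2% of all genes; 2 higher by DESeq2 and 3 by limma-voom, and 1, *Keap1*, lower by both), and the median log2 fold change was 0.24. *Bach1*, which encodes a repressor that competes with NRF2 at *Hmox1* and other targets, rose from 9.07 ± 1.45 CPM (SD, n = 4) to 15.1 ± 2.12 CPM (SD, n = 5), without overlap (log2 fold change 0.73, standard error 0.18, adjusted p = 0.0173, edgeR). *Sqstm1*, for the p62 adaptor that binds KEAP1, was the other. *Keap1* was at 31.6, 54.1, 37.4 and 26.8 CPM in control replicates 71, 72, 73 and 76, and at 36.8, 14.6, 17.5, 16.8 and 23.1 CPM in mutant replicates 74, 75, 77, 78 and 79. The mutants other than replicate 74 lay below all controls, and edgeR gave a log2 fold change of −0.78 ± 0.27 (standard error) with an adjusted p of 0.0649. The ratio of *Keap1* to *Nfe2l2*, in reads per length, was 0.264 ± 0.113 in controls (SD, n = 4) and 0.0930 ± 0.0612 in mutants (SD, n = 5), and that of *Bach1* to *Nfe2l2* was 0.0482 ± 0.0137 and 0.0468 ± 0.0179; both ratios overlapped between genotypes, were set up after the values were seen and were not tested.

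The list of lipid peroxide defence, 16 tested of 16, also holds genes that favour lipid peroxides, such as *Acsl4* and *Lpcat3*, or that supply iron. It included 2 higher and 1 lower by edgeR (4 and 3 by DESeq2 and by limma-voom), with a median log2 fold change of 0.00. Neither these counts nor the median thus describes defence alone. *Slc3a2*, given above, and *Acsl4* (0.93), which loads polyunsaturated fatty acids onto coenzyme A, were higher, and the phospholipid acyltransferase gene *Lpcat3* (−0.47) was lower (log2 fold change, edgeR); *Lpcat3* overlaps *Emg1* over 38 bases.

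The list of ATF4 targets was drawn up with earlier results of these data known. It also holds *Atf4* itself, which was higher (log2 fold change 1.24, edgeR). Of its 21 genes, 16 were higher and 0 lower by edgeR, and the median log2 fold change was 1.62. At an unadjusted p under 0.05 (edgeR), 0 were lower, against 15.2% of all genes. DESeq2 and limma-voom each gave 18 higher and 0 lower. The 6 largest were *Nupr1* (4.61), *Fgf21* (3.90), *Trib3* (2.88), *Asns* (2.85), *Mthfd2* (2.57) and *Atf3* (2.31; log2 fold change, edgeR). *Fgf21* rests on 0 to 9 reads per control library. The smallest of the 16 was *Pycr1* (0.86). *Chac1* (2.90), *Hmox1* (1.55), *Srxn1* (1.27) and *Cth* (1.20) lay within the range of the 16 and *Nfe2l2* (0.83) just below it. Only genes called higher set this range, so a place within it does not mark a gene as an ATF4 target. Of the 16, *Gdf15* (adjusted p = 0.0489, edgeR) lost its call in 8 of the 15 alternatives and *Cebpb* (adjusted p = 0.0331, edgeR) in 6. *Cebpb* also overlaps the more abundant *Tmem189* over 908 bases on the other strand, which makes its count uncertain. Mutant replicate 74 was the lowest mutant for 10 of the 16 higher genes, as it was for *Chac1*, *Cth*, *Hmox1* and *Nfe2l2*. The same share over all genes called higher was not counted.

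**Figure D3:**
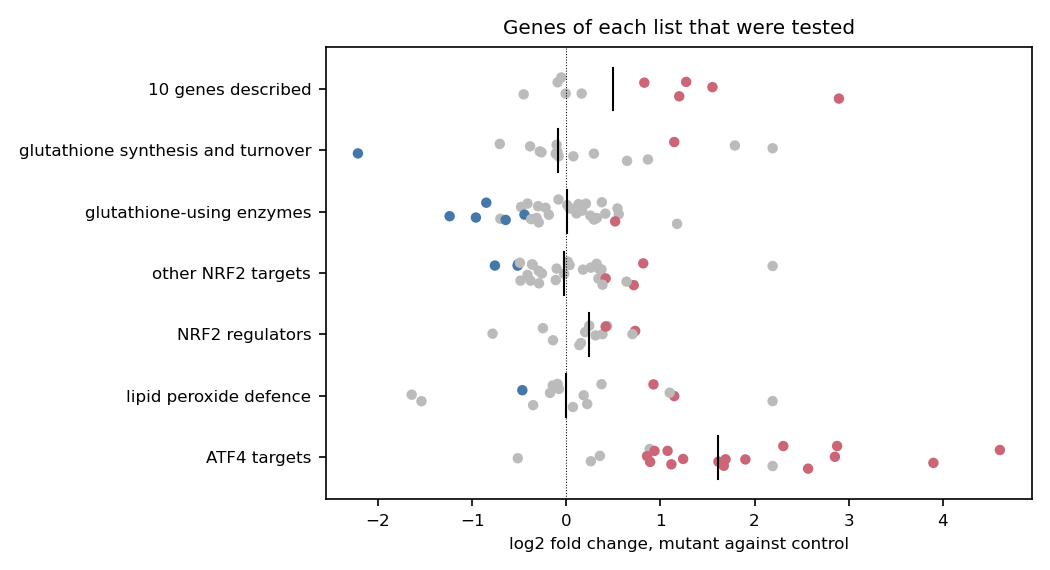
Log2 fold change (horizontal axis), mutant (n = 5) against control (n = 4), of each tested gene in the 10 genes described and in 6 lists of related genes; red marks genes higher and blue genes lower in mutant cells with an adjusted p under 0.05 (edgeR), grey the others, and black bars the medians. The medians are 0.50 for the 10 genes, 1.62 for the ATF4 targets and between −0.09 and 0.24 for the other lists; vertical scatter within a list has no meaning.

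Because *Chac1*, *Srxn1* and *Nfe2l2* were higher in mutant cells, the sequence before their starts is shown with the motifs it holds. RefSeq promoter windows (build GRCm38.p6; 250 bases before to 50 after a start) matched 7 of the 10 genes (not *Cth*, *Gclc* and *Hmox1*). Both strands were searched for TGACNNNGC, the core of the antioxidant response element, which 12.4% of 32851 windows held, and for TGATGNAA, the core of the C/EBP-ATF response element, which 3.97% held. TGACTCA, the AP-1 motif, whose letters can form part of TGACNNNGC, was added after the sequences were seen and was held by 5.2%. *Chac1* held TGATGNAA on the opposite strand, 193 to 186 bases before the start, in capitals in the run chr2:119351034-119351071 (plus strand).
Chac1: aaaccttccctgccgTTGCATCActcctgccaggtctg
*Nfe2l2*, on the minus strand, held TGACNNNGC 240 to 232 bases before its start, in capitals in chr2:75704880-75704913.
Nfe2l2: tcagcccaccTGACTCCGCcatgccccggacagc
*Srxn1* held TGACTCA on the opposite strand in a pair of places, 102 to 96 and 45 to 39 bases before its start, in chr2:152105407-152105443 and chr2:152105464-152105500 (plus strand), neither overlapping its TGACNNNGC match, which lies past the start. The search for TGACNNNGC allowed only C after TGA. Letters with G there, such as TGAGTCAgc in the downstream *Srxn1* run, were therefore not counted as that motif.
Srxn1, upstream: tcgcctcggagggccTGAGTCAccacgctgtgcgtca
Srxn1, downstream: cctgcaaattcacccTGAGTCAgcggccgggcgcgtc
For comparison, TGACNNNGC also stood before the starts of *Gclm* and *Txnrd1*, neither of which passed the threshold, on the opposite strand in chr3:122245408-122245446 and chr10:82859099-82859137 (plus strand), again in capitals.
Gclm: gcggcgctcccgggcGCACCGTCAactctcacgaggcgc
Txnrd1: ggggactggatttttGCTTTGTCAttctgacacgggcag
Genes with and without a called difference thus held TGACNNNGC, and neither *Gpx4* nor *Nqo1* held any of these motifs in its windows. A match describes the letters only.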

How the data were processed

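RNA-seq of 4 control and 5 mutant libraries was analysed; groups follow the sample labels, and the submitters' processing notes list STAR, DESeq2 and mm10 without versions. The deposited table holds read counts per gene, which were used, and 9 columns of FPKM values computed by the authors, which were not; gene length and gene coordinates (GRCm38) are those the authors deposited. Their other summary columns, signal, fold changes and p-values, were not used. Genes were matched by symbol, and no identifier is printed for *Gpx4*, whose identifier in the table does not match the GENCODE annotation for that symbol. In R 4.3.3 with edgeR 4.0.16, 14990 of 26858 genes passed filterByExpr, library sizes were recomputed and scaled by TMM, and genotypes were compared by the robust quasi-likelihood test with Benjamini-Hochberg adjustment over all genes tested (threshold 0.05). The scripts were tested on simulated data, in which DESeq2 made false calls well above its nominal level and more than edgeR or limma-voom. Per-library values were tested by 2-sided exact permutation over all splits into 4 and 5 libraries. Alternatives used DESeq2 1.42.0, limma 3.58.1, other scaling and filters, and 9 left-out libraries; figures used Python 3.11.15 and matplotlib 3.10.9.

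The 10 genes, the 6 pathway lists and the 8 marker lists were chosen with earlier results of these data known. Genes named are the 10, *Uqcrq*, up to 6 called genes per direction of each pathway list, the most abundant and the called genes of each marker list, and the 5 most correlated genes of *Chac1*, *Hmox1* and *Nfe2l2*. *Keap1*, *Slc7a11*, *Ret*, *Wnt9b*, *Pdgfrb*, *Pycr1*, *Gdf15*, *Cebpb*, *Ddit3*, *Sesn2* and *Atf4* were added after their values were seen.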

Additional observations from a re-analysis of the deposited data

Results flagged for a closer look

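In 8 of 112 groups of libraries examined, 1 library lay far from the others of its genotype by Dixon's criterion; chance alone gives about 1 in 20, or 5.6 groups. *Hmox1* was at 36.8 CPM in mutant replicate 78, and the next highest mutant was at 18.6 CPM; without that library the log2 fold change was 1.20, and adjusted p ranged from 1.61e-05 to 0.0322 over the 15 alternatives (edgeR, DESeq2 and limma-voom). *Srxn1* was at 9.39 CPM in mutant replicate 79, and the next lowest mutant was at 22.0 CPM; without that library the log2 fold change was 1.46. In the same replicate, 3 ATF4 targets stood above the other mutants: *Trib3* at 41.0 CPM against 21.6 CPM for the next, *Ddit3* at 166 against 140 CPM, and *Sesn2* at 71.7 against 30.3 CPM. *Ddit3* overlaps *Mars* over 68 bases. *Bach1* was at 18.8 CPM in mutant replicate 74, with the next at 14.8 CPM. *G6pdx* was at 60.8 CPM in mutant replicate 75, with the next at 49.9 CPM, so it lay nearest to the controls there. *Gstz1* was at 60.8 CPM in control replicate 71, with the next control at 53.9 CPM. The cause of these values was not tested.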

How the results depend on the processing

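*Chac1*, *Cth*, *Hmox1*, *Srxn1* and *Nfe2l2* kept their direction and their call in all 15 alternatives, with log2 fold changes of 2.69 to 3.03, 1.06 to 1.35, 1.20 to 1.75, 1.12 to 1.46 and 0.71 to 0.94 when a library was left out. With limma-voom and sample quality weights, 4858 genes passed the threshold in place of 2225, 34 in place of 23 other pathway genes were higher, 17 in place of 10 were lower and 1 in place of 0 of the 10 genes was lower (*Gclc*). With each library left out, the genes past the threshold ranged from 1046 to 3136, the 10 genes called lower from 0 to 1, the other pathway genes called higher from 17 to 28 (23 with all libraries) and lower from 7 to 13. The log2 ratio of *Gclm* to *Gclc* ranged from 0.50 to 0.83. Signs near 0 turned for *Gpx4* (0.0042 with DESeq2 and with RLE scaling, 0.11 with limma-voom, −0.094 to 0.13 with a library left out), *Nqo1* (−0.22 to 0.12) and *Txnrd1* (−0.23 to 0.055); the cause of these moves was not tested. DESeq2, which made false calls well above its nominal level in simulated data, called 3184 genes, 1746 higher and 1438 lower, and upper-quartile scaling 1015 higher and 1177 lower. The median of all genes stayed within 0.05 of 0 on the log2 scale in every setting.

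No paired analysis was possible because the genotypes share no replicate numbers in the labels. Low counts limit the precision for *Fgf21*, *Slc7a11* and *Ggt7*; litter, sex and batch were not fitted.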
